A study of Mus musculus with 32 samples.

Results

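In a set of mouse sarcoma transcriptomes, 457 of the 55419 transcripts measured were higher in synovial sarcoma than in every other tissue type of the series. They were chosen by their class medians. A member had a median of at least 5 RPKM over the 6 synovial sarcomas. Its median plus 1 was also at least 4 times the median plus 1 in clear cell sarcoma, in osteosarcoma and in the control samples, each taken alone. RPKM divides the reads counted on a transcript by the kilobases of that transcript and by the sequencing depth. Of the 10039 transcripts that reached the minimum of 5 RPKM in synovial sarcoma, 4.55% were members. The difference between synovial sarcoma and the other types chose the members, so it is described below and was not tested.

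The series holds 32 libraries of total RNA. Myf5-SSM2/PLUC stands at the start of the title of each of the 6 synovial sarcomas, and 3 of them go on with the number 37 (libraries 37-4, 37-7 and 37-8), 2 with 39 (39-5 and 39-9) and 1 with 44. The 13 clear cell sarcomas carry EA1 in their titles and were started with Rosa26CreER in 5 libraries, with TATCre in 4 and with Prx1CreERT2 and Bmi1IRESCreERT2 in 2 each. Of the 4 TATCre titles, 2 share the number N123 (N123-RLN and N123-Rleg). The 7 osteosarcoma titles name Rb1 and p53, with Col1Cre in 4 and Prx1Cre in 3, and the 6 controls are titled Chest (5) or Bone (1). The labels spell out neither SSM2, PLUC and EA1 nor the tissue of the controls, and they give no age, sex, animal or batch. A class therefore cannot be told apart from the alleles and the Cre in its titles. Libraries of a class may share an animal, so p-values measure the spread between libraries, part of which may be technical.

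Synovial sarcoma is a soft tissue tumour driven by a fusion of SS18, a subunit of the BAF chromatin remodelling complex, with an SSX gene. The fusion protein is known to redirect this complex to genes that Polycomb complexes otherwise keep silent, many of them developmental regulators. Myf5 is a transcription factor of muscle precursor cells, and mice in which a Cre recombinase expressed from Myf5 switches on the fusion develop such tumours. Cre removes DNA between loxP sites. CreER and CreERT2 are forms that tamoxifen activates, and TATCre is a purified protein, able to cross the cell membrane.

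Transcripts carry UCSC identifiers in the files, which do not pair them with genes. Gene names, pathway lists, sequences and the defining markers of the labelled tissues were therefore not used here, and members are described by their length and values. The identifiers of 2 members are given, chosen as those with the highest synovial sarcoma medians among members of at least 100 bases whose 6 synovial sarcomas all lay above the other 26 libraries. Other members are called by their length and were chosen after their values were seen. Transcripts of 1 locus can overlap, so reads of some members may have been shared or split between them. In these bulk samples, fewer cells of a type and less RNA per cell cannot be told apart.

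Several libraries stood apart. By Spearman correlation over 13596 transcripts of at least 100 bases, the nearest neighbour of 31 of the 32 libraries was of the same tissue type, and the osteosarcoma Prx1Cre 42 was nearest to the control Bone3. The count of members was 430 without Prx1Cre 42. In 5 libraries outside synovial sarcoma (the clear cell sarcomas Rosa26CreER 2, Rosa26CreER 5 and TATCre N178-Lleg, the osteosarcoma Col1Cre 31 and the control Chest5), 250 to 287 members of at least 100 bases were above 0, against 119 to 208 in the other 21. Depth was 8.11 to 10.97 M reads (megareads) in these 5 libraries and 8.13 to 12.05 M in the 21, and 8.73 to 13.1 M in synovial sarcoma. These 5 were picked out after the values were seen, and the main counts outside synovial sarcoma are given with and without them.

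Transcript length and depth could be read back from the steps of the values, since every RPKM in a library is a multiple of the value of a single read, which length and depth set. A length was recovered for all 457 members, with a median of 929 bases (range 2 to 17591), against 1068 bases for the transcripts of at least 5 RPKM in synovial sarcoma that were not members. Short transcripts were a larger share of the set. Lengths under 100 bases made up 105 members (22.98%) and 12.1% of the other transcripts, and lengths of 300 bases or more made up 289 members (63.2%) and 72.3% of the others. No source used here says what so short a length stands for.

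The short members rested on few reads. The median over members of the synovial sarcoma reads was 9 under 100 bases, 17 for lengths from 100 to under 300 bases and 394 at 300 bases or more. Among the 105 members under 100 bases, 10 were above 0 in all 6 synovial sarcomas and 60 were listed at 0 in 3 of the 6. Among the 289 members of 300 bases or more, 273 were above 0 in all 6 and 1 was listed at 0 in 3. The highest medians of the set came from the shortest transcripts. A member of 4 bases had 3306 to 24348 RPKM in synovial sarcoma, which stood for 117 to 1272 reads, and a member of 2 bases had 1130 RPKM in 37-4 from 20 reads and was listed at 0 in 37-8 and 39-5. The values below are therefore given mainly for the 352 members of at least 100 bases, called the longer members.

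**Figure D1:**
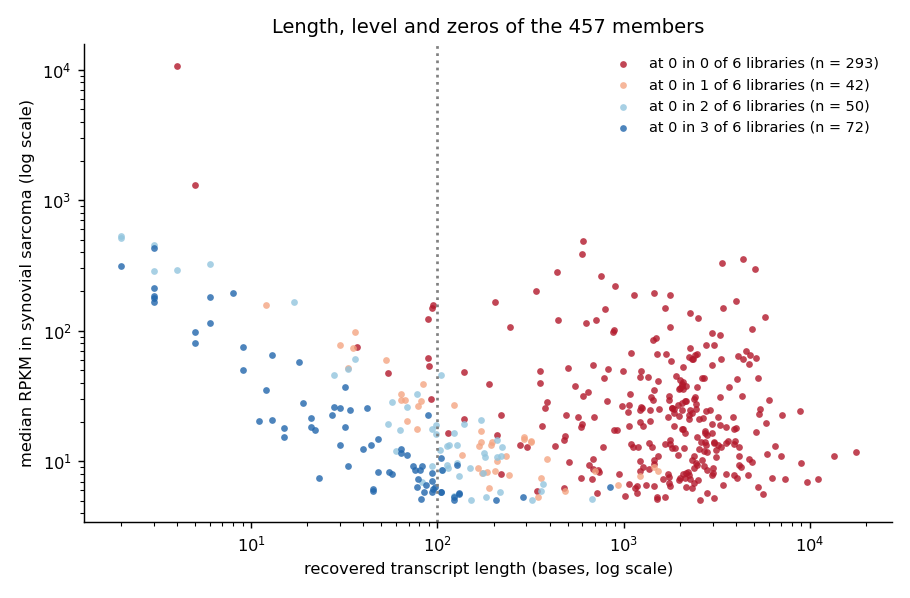
Each point is 1 of the 457 members, by recovered length in bases (horizontal, log scale) and median RPKM over the 6 synovial sarcomas (vertical, log scale), with the colour giving the number of synovial sarcoma libraries in which it was listed at 0. Members listed at 0 in 3 of 6 libraries (72 in all) lie mostly left of the dotted line at 100 bases, and 293 members were above 0 in all 6.

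A few strong transcripts carried much of the signal of the longer members. The median of their synovial sarcoma medians was 14.6 RPKM, against 23.1 RPKM for the 8389 other transcripts of at least 100 bases and at least 5 RPKM in synovial sarcoma. Of the 352, 142 had a median of at least 20 RPKM, 27 of at least 100 and 9 of at least 200. The 10 members with the most reads carried 31.2% of all reads of the longer members in synovial sarcoma, and the 50 with the most carried 64.3%.

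Together the longer members took a much larger part of the reads in synovial sarcoma than elsewhere, which the rule itself set. They took 2.54% of the reads in 37-4, 4.21% in 37-7, 2.11% in 37-8, 2.27% in 39-5, 3.65% in 39-9 and 1.49% in 44. In clear cell sarcoma the share was 0.222% to 0.675% (median 0.290%), in osteosarcoma 0.105% to 0.526% (median 0.182%) and in the controls 0.0896% to 0.150% (median 0.114%). The lowest synovial sarcoma, library 44, thus lay above the highest library of any other type. The mean log2(RPKM + 1) of the longer members was 3.17 to 4.94 in synovial sarcoma and 0.52 to 1.61 in the other 26 libraries.

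**Figure D2:**
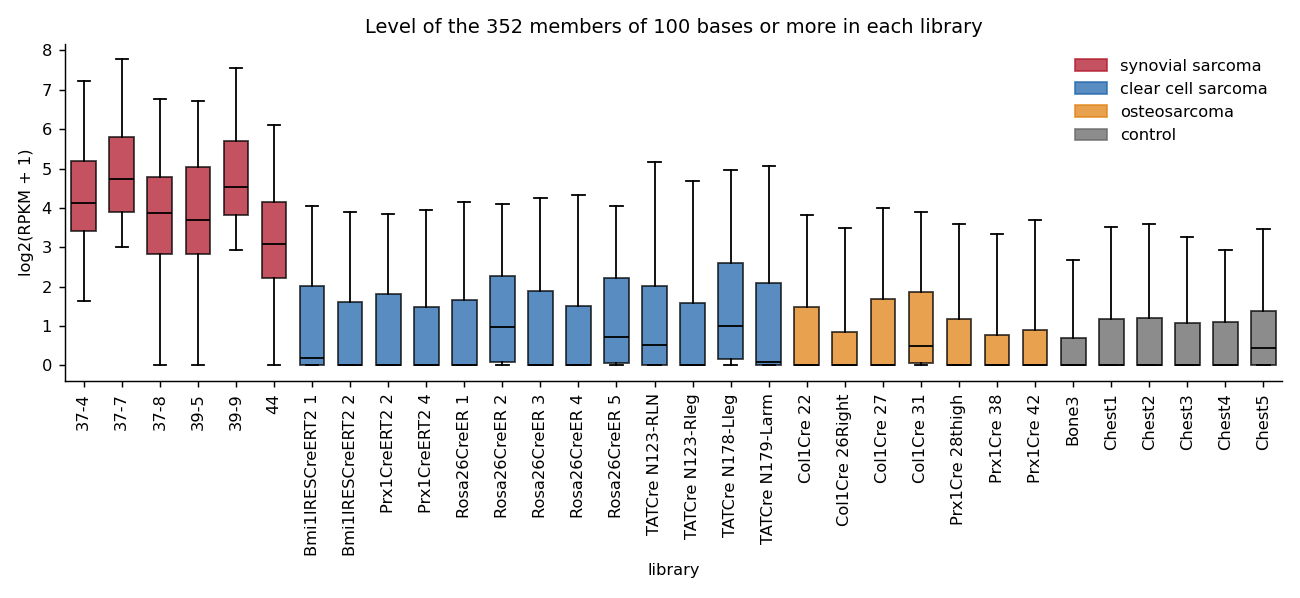
Boxes give the median and quartiles, and whiskers the 5th to 95th percentile, of log2(RPKM + 1) over the 352 members of at least 100 bases, for each of the 32 libraries coloured by tissue type. All 6 synovial sarcomas lie above the others, with 37-7 and 39-9 highest and 44 lowest among them.

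The transcript uc009bax.2, of 756 bases, was the stronger of the 2 identified members. It had 270 RPKM in 37-4, 413 in 37-7, 258 in 37-8, 238 in 39-5, 341 in 39-9 and 61.6 in 44, from 520 to 2810 reads, which gave 264 ± 118 RPKM (SD, n = 6). Library 44 stood well below the other 5. In clear cell sarcoma the median was 0.289 RPKM and the highest library had 5.52, with 5 of 13 listed at 0. In osteosarcoma the highest library had 3.26 and 4 of 7 were listed at 0. In the controls the median was 3.48 RPKM and the highest library had 6.26. The lowest synovial sarcoma was thus far above every other library, and the difference from the highest other class median, that of the controls, was 5.89 on the scale of log2(RPKM + 1). Outside synovial sarcoma, osteosarcoma had less uc009bax.2 than the controls had (log2 difference -1.35, SE 0.50, limma adjusted p = 0.0349). That call was lost, with limma adjusted p up to 0.0728, when 0.1 in place of 1 was added before the log and when Prx1Cre 42 was left out. Clear cell sarcoma differed from the controls by -1.06 (SE 0.45, limma adjusted p = 0.0503), just short of a call. Osteosarcoma differed from clear cell sarcoma by -0.29 (SE 0.42, limma adjusted p = 0.636).

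The transcript uc008xtj.1, of 1768 bases, showed a graded pattern. It had 189 RPKM in 37-4, 461 in 37-7, 141 in 37-8, 333 in 39-5, 185 in 39-9 and 98.5 in 44, or 235 ± 136 RPKM (SD, n = 6). In clear cell sarcoma it had 26.2 to 96.4 RPKM (median 37.5), in osteosarcoma 1.70 to 13.2 (median 8.74) and in the controls 4.25 to 10.1 (median 6.35). The clear cell sarcomas lay between the synovial sarcomas and the other types, with no overlap on either side. Osteosarcoma was lower than clear cell sarcoma by a log2 difference of -2.61 (SE 0.29, limma adjusted p = 3.30e-07) and clear cell sarcoma was higher than the controls by 2.53 (SE 0.31, limma adjusted p = 4.11e-07). Osteosarcoma and the controls differed by -0.08 (SE 0.35, limma adjusted p = 0.894), and neither this transcript nor uc009bax.2 passed the test between title numbers 37 and 39 (limma adjusted p = 0.9999 for both).

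**Figure D3:**
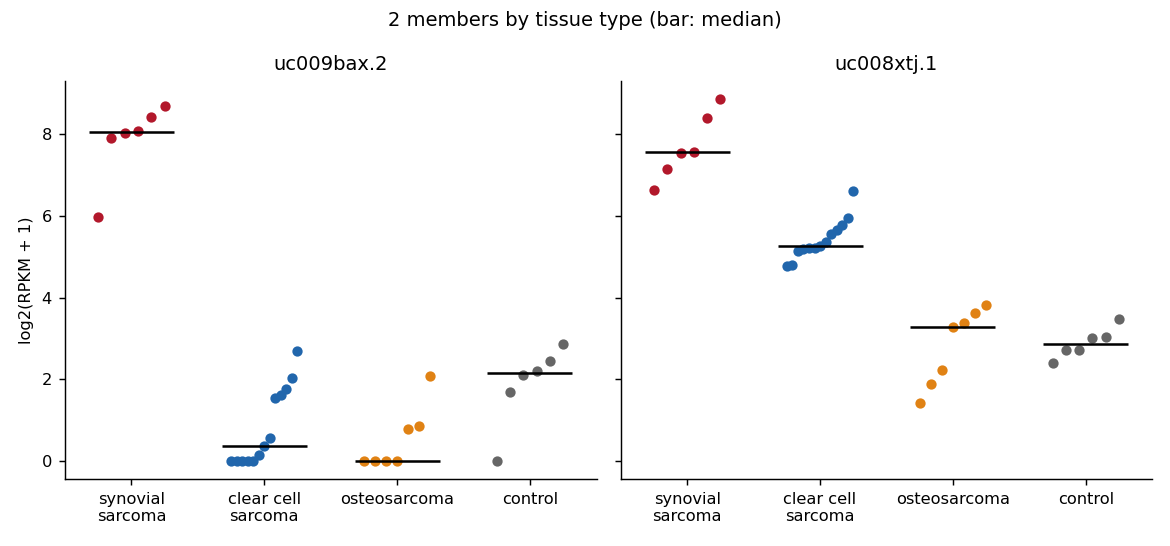
Each point is 1 library, by tissue type (6 synovial sarcomas, 13 clear cell sarcomas, 7 osteosarcomas, 6 controls), with log2(RPKM + 1) on the vertical axis and a bar at the class median. The lowest synovial sarcoma had 61.6 RPKM of uc009bax.2 and 98.5 RPKM of uc008xtj.1, above all 26 other libraries in both.

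Other strong members differed in how evenly the synovial sarcomas carried them. The longer member with the highest median, of 607 bases, had 314, 961, 633, 456, 519 and 83.2 RPKM in 37-4, 37-7, 37-8, 39-5, 39-9 and 44. It was also present in osteosarcoma, with a median of 57.9 and up to 88.7 RPKM, so that the highest osteosarcoma lay above library 44. A member of 3401 bases had 45.5 to 239 RPKM in the 6 synovial sarcomas and at most 2.63 in the other 26 libraries. A member of 1487 bases had 47.7 to 367 RPKM in synovial sarcoma and at most 0.646 elsewhere, with all 6 controls listed at 0. These last 2 members were without overlap and close to 0 outside synovial sarcoma.

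The second highest median belonged to a member of 599 bases that split the synovial sarcomas. It had 1271 RPKM in 37-7, 2009 in 37-8 and 691 in 39-5, but 16.04 in 37-4, 28.01 in 39-9 and 84.4 in 44. The reads behind these values were 5402 to 10942 in the first 3 libraries and 85 to 564 in the other 3. The split followed neither title number, since 37 and 39 each had libraries on both sides. The member was listed at 0 in all 6 controls, in 6 of 7 osteosarcomas and in 11 of 13 clear cell sarcomas, and the osteosarcoma Col1Cre 31 had the highest value outside synovial sarcoma, 17.3 RPKM.

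Single members fell on 1 side or the other of detection within the class. A member of 843 bases had 26.95 RPKM in 37-4, 21.1 in 37-8 and 12.6 in 39-9, from 116 to 201 reads, and was listed at 0 in 37-7, 39-5 and 44. Outside synovial sarcoma it was above 0 only in the osteosarcoma Col1Cre 27, with 3.71 RPKM. A member of 1446 bases had 62.7 RPKM in 39-5 and was listed at 0 in 39-9, the library with the same title number. The most even member of 300 bases or more, of 1099 bases, had 11.8 to 18.7 RPKM and was highest in library 44.

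Across the set the synovial sarcomas differed more than they did at other transcripts. The SD of log2(RPKM + 1) over the 6 libraries had a median of 0.91 over the longer members (quartiles 0.68 and 1.22) and 0.43 over the 8389 other transcripts (0.30 and 0.63). Over members of 300 bases or more the medians were 0.83 and 0.41. The highest library exceeded the lowest, each plus 1 RPKM, by a median of 4.99 times over the longer members and 2.20 times over the others, and by at least 10 times for 81 members. No test was made of this difference.

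The variation had a shared order. Of the 352 longer members, 166 (47.2%) were highest in 37-7 and 122 (34.7%) in 39-9, whereas 194 (55.1%) were lowest in 44. Among other transcripts 37-7 was highest for 25.6%, 39-9 for 30.5%, and 44 was lowest for 46.6%. The libraries 37-7 and 39-9 were the highest pair for 195 members (55.4%) and for 34.9% of other transcripts. The mean log2(RPKM + 1) of the longer members was 4.23 in 37-4, 4.94 in 37-7, 3.76 in 37-8, 3.88 in 39-5, 4.78 in 39-9 and 3.17 in 44, whereas that of the other transcripts was 4.49 to 4.99. The order thus crossed the title numbers, since 37-7 and 39-9 were high and 37-8 and 39-5 were not. After median ratio scaling the means of the members ran from 3.19 to 4.47 and after quantile normalization from 3.13 to 4.48, with 44 lowest and 37-7 highest in both.

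**Figure D4:**
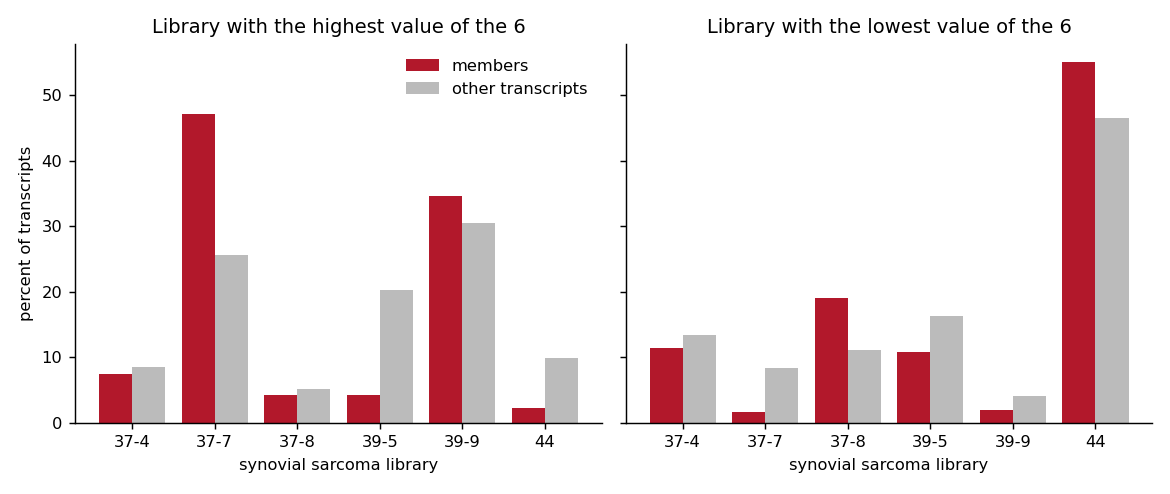
Bars give the percent of transcripts that were highest (left) or lowest (right) in each of the 6 synovial sarcomas, for the 352 members of at least 100 bases (red) and the 8389 other transcripts of at least 100 bases and 5 RPKM in synovial sarcoma (grey). Members were highest in 37-7 (47.2%) and 39-9 (34.7%) and lowest in 44 (55.1%).

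Most members followed that order and a few opposed it. Pearson's r of a member with the mean of the other longer members over the 6 libraries had a median of 0.80 (quartiles 0.58 and 0.90), and 286 of 352 members had at least 0.5. Of the 19 members with r below 0, 8 were highest in library 44. These values describe 6 points that share library depth and scaling. The other transcripts had the same pair of libraries most often highest and the same library most often lowest, at the smaller shares given above. Their correlation with the mean of the members was not computed, so whether a high r is particular to the members was not tested. Between pairs of synovial sarcomas, Spearman's rho was 0.634 to 0.816 over the longer members and 0.808 to 0.936 over the other transcripts, and these are across transcripts, which are not independent replicates.

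The title numbers 37 (n = 3) and 39 (n = 2) were compared in 1 fit with library 44. This asked whether libraries with a common number shared levels of the members. Of the 457 members, 3 (0.656%) passed limma at an adjusted p of 0.05, against 0.169% of the 14776 transcripts tested, and 11 members (2.41%) had an unadjusted p under 0.05, against 1.90% of all. All 3 were higher in 39 and under 100 bases long. The member of 13 bases was listed at 0 in 37-4, 37-7 and 37-8 and had 41.2 RPKM in 39-5, 56.4 in 39-9 and 145 in 44, from 7 to 21 reads (limma adjusted p = 0.0172). The member of 11 bases had 40.7 to 62.6 RPKM in 39-5, 39-9 and 44, from 5 to 9 reads (limma adjusted p = 0.0196), and that of 93 bases had 11.6 to 29.6 RPKM, from 12 to 30 reads (limma adjusted p = 0.0381), with both listed at 0 in the 3 libraries of 37. A member listed at 0 in all libraries of 37 could reach the minimum median only through high values in 39-5, 39-9 and 44. The rule thus shaped the share of members called, and nothing is read from its distance to the share over all. None of the 352 longer members passed. The count was 0 without 37-4, where 0% of all transcripts were called, and 5 without 37-7 (1.09%, against 0.222% of all). Without 39-5 or without 39-9, 1 library of 39 was left, and the log2 differences of the 3 members were 4.32 to 5.99. With all libraries they were 4.63 to 5.70. The calls thus rest on few reads, and leaving out 37-4 removed every call of the fit.

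Outside synovial sarcoma many longer members were at or near 0. For 150 of 352 the median was 0 in all 3 other classes. The rule takes in every transcript with such medians and at least 5 RPKM in synovial sarcoma, so no other transcript of that level could have them. Listed at 0 in all 26 other libraries were 8 of the 352, and 60 were listed at 0 in all 21 that remained without the 5 libraries that stood apart. One of the 8, of 1229 bases, had 2.19 to 38.8 RPKM in the synovial sarcomas, from 30 to 520 reads. Among the 202 with a median above 0 in some other class, clear cell sarcoma was the next highest class for 106 (52.5%), osteosarcoma for 49 (24.3%) and the controls for 47 (23.3%). Among the 8389 other transcripts the same shares were 39.6%, 36.0% and 24.4%. A median of at least 5 RPKM was reached by 41 of the longer members in clear cell sarcoma, by 31 in osteosarcoma and by 29 in the controls. The ratio used by the rule was at least 8 for 186 of the longer members and at least 16 for 63.

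The members were less exclusive by single libraries than by medians. The lowest synovial sarcoma lay above all 26 other libraries for 158 of the 457 members, and this held for 2.03% of all transcripts with at least 5 RPKM in synovial sarcoma. Against clear cell sarcoma alone there was no overlap for 193 members, against osteosarcoma for 225 and against the controls for 279. Over all transcripts with at least 5 RPKM in synovial sarcoma the same held for 4.66%, 8.16% and 35.2%. Among the longer members the counts, in the same order from all 26 libraries to the controls, were 153, 187, 218 and 270. Over all transcripts of at least 100 bases and at least 5 RPKM in synovial sarcoma the shares were 2.27%, 5.18%, 9.03% and 38.1%. Without the 5 libraries, 170 members lay above all 21 others, as did 2.35% of all transcripts with at least 5 RPKM in synovial sarcoma. The rule used these contrasts, so the counts describe its members. In the other direction, 85 of the longer members (24.1%) had at least 1 library of another type above their synovial sarcoma median, and 67 had one without the 5 libraries. Such values were 2.91% of all values of the longer members in clear cell sarcoma, 1.42% in osteosarcoma and 0.805% in the controls. Among the other transcripts, which the rule did not hold down, they were 34.8%, 35.6% and 23.03% of values.

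The 5 libraries that stood apart held many members at low counts. Between 136 and 180 longer members were above 0 with under 20 reads in each of these 5, against 29 to 71 in the other 21 libraries outside synovial sarcoma. The median reads of a longer member above 0 were 10 to 20 in the 5 and 21 to 63.5 in the 21. Of the 5, Col1Cre 31 had 278 members above 0 and the next osteosarcoma 174, and Chest5 had 250 and the next control 164. The set had 484 members without these libraries. The counts of members called without them stand beside each comparison below.

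**Figure D5:**
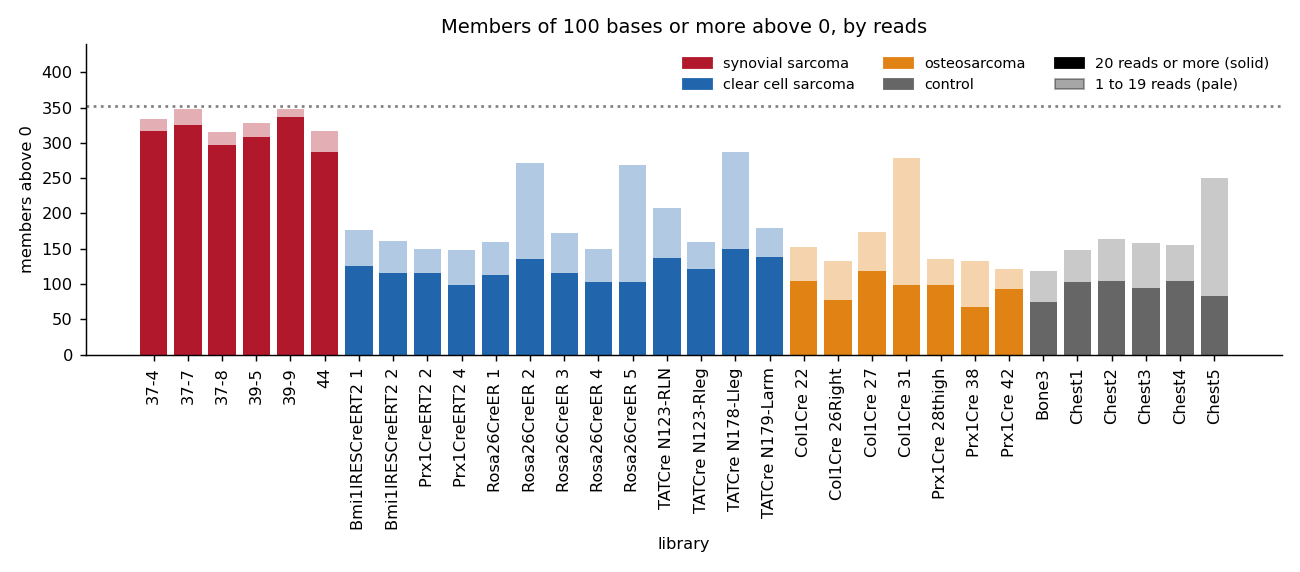
Bars give the number of the 352 members of at least 100 bases above 0 in each of the 32 libraries, solid for 20 reads or more and pale for 1 to 19 reads, with the dotted line at 352. The pale part is 136 to 180 members in Rosa26CreER 2, Rosa26CreER 5, TATCre N178-Lleg, Col1Cre 31 and Chest5, and 29 to 71 in the other 21 libraries outside synovial sarcoma.

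The next comparisons were among the other types, with no synovial sarcoma in the fit. The rule held down the median of each of these types, so the share of members called is shaped by that choice, and nothing is read from its distance to the share over all transcripts. The 26 other libraries were fitted together, and 253 members had at least 1 RPKM in at least 6 of them. The other 204 members did not pass this filter. Osteosarcoma differed from clear cell sarcoma at 51 of the 253 (20.2%), 10 higher and 41 lower. Over all 14403 transcripts tested, 30.5% differed, 13.0% higher and 17.5% lower. The median log2 difference was -0.51 over the members and -0.04 over all. Without the 5 libraries the count was 36 of 171 (21.1%, against 23.2% of all), 8 higher and 28 lower.

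Members on both sides of this comparison were strong in synovial sarcoma. A member of 4022 bases had 73.0 to 413 RPKM in synovial sarcoma, 2.58 to 51.4 (median 17.2) in clear cell sarcoma, at most 0.755 in osteosarcoma and 0.812 to 3.72 in the controls. Its level in osteosarcoma was below that in clear cell sarcoma (log2 difference -3.72, SE 0.41, limma adjusted p = 2.38e-07), and the 2 classes did not overlap. A member of 642 bases had 10.6 to 114 RPKM in synovial sarcoma, 0.145 to 15.0 in osteosarcoma (median 7.53) and at most 1.14 in clear cell sarcoma. It was higher in osteosarcoma than in clear cell sarcoma (log2 difference 2.18, SE 0.42, limma adjusted p = 0.000352). The member of 607 bases was likewise higher in osteosarcoma than in clear cell sarcoma, with medians of 57.9 and 5.45 RPKM (limma adjusted p = 0.00875).

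Clear cell sarcoma was next set against the controls. It differed at 75 of the 253 members (29.6%), 63 higher and 12 lower, where 51.5% of all transcripts differed, 35.6% higher and 15.9% lower. The median log2 difference was 0.67 over the members and 0.38 over all. Scaling moved the split, to 45 higher and 21 lower with median ratio scaling and to 47 and 19 with quantile normalization, which brought the median of all transcripts to -0.03 and 0.08 and that of the members to 0.42 and 0.45. Without the 5 libraries the count was 53 of 171 (30.99%, against 43.4% of all), 41 higher and 12 lower.

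The member of 900 bases had the largest difference among the higher calls named here. It had 142 to 298.95 RPKM in synovial sarcoma, 2.53 to 230.1 in clear cell sarcoma (median 18.6) and at most 1.09 in the controls (log2 difference 4.00, SE 0.91, limma adjusted p = 0.000781). The clear cell sarcomas also differed in it by initiating Cre group (limma F test, adjusted p = 0.00702), with the highest value in TATCre N123-RLN. A member of 794 bases had 52.6 to 282 RPKM in synovial sarcoma, 5.03 to 45.8 in clear cell sarcoma and 0.534 to 1.93 in the controls (log2 difference 3.22, SE 0.41, limma adjusted p = 7.94e-07). Both members thus separated clear cell sarcoma from the controls without overlap. The lower calls included members of 1076, 990 and 1088 bases. These had medians of 32.7, 49.05 and 67.7 RPKM in synovial sarcoma, of 0 in clear cell sarcoma and of 7.18, 7.80 and 8.07 RPKM in the controls. The member of 1076 bases had the largest of these 3 differences (log2 difference -2.48, SE 0.47, limma adjusted p = 0.000115).

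Osteosarcoma differed from the controls at 33 of the 253 members (13.0%), where 39.3% of all transcripts differed. In this set 20 were higher and 13 lower, against 26.4% and 12.8% of all transcripts. The direction depended on the setting. It turned to 15 higher and 21 lower with median ratio scaling and to 16 and 17 with quantile normalization, which moved the median of all transcripts from 0.28 to -0.03 and 0.05. The shares called under these 2 scalings were 14.2% and 12.5% of members, against 37.5% and 36.5% of all. Without the 5 libraries the count was 20 of 171 (11.7%, against 29.4% of all), 8 higher and 12 lower. A member of 626 bases had 19.9 to 360.2 RPKM in synovial sarcoma and 8.00 to 34.9 in the controls. Of the 7 osteosarcomas 4 were listed at 0 and the highest had 1.89 (log2 difference -3.47, SE 0.92, limma adjusted p = 0.00418). The member of 4378 bases had 187 to 630 RPKM in synovial sarcoma, 2.95 to 258 in osteosarcoma and 3.78 to 9.19 in the controls (log2 difference 2.40, SE 0.63, limma adjusted p = 0.00368). The comparisons of osteosarcoma and of clear cell sarcoma with the controls share the same 6 control libraries.

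Within clear cell sarcoma, some members reached the level of synovial sarcoma in tumours started with TATCre. An F test over the 4 initiating Cre groups called 43 of 328 members tested (13.1%), against 10.7% of 15195 transcripts. Of these, 38 were longer members, and 32 of the 38 (84.2%) had their highest group mean in TATCre, against 44.3% of all called transcripts. The rule kept the median over the 13 clear cell sarcomas below that of synovial sarcoma. A member could thus reach that level only in a minority of them, such as the 4 of TATCre. Nothing is read from these shares. A member of 2988 bases had 74.3 to 109 RPKM in the 4 TATCre tumours, 26.98 to 109 in synovial sarcoma, at most 0.179 in Rosa26CreER, 1.34 and 1.94 in Prx1CreERT2, and was listed at 0 in both Bmi1IRESCreERT2 tumours (limma adjusted p = 9.86e-08). A member of 364 bases had 60.5 to 65.3 RPKM in TATCre and 5.41 to 44.7 in synovial sarcoma, and was listed at 0 in all 4 tumours of Prx1CreERT2 and Bmi1IRESCreERT2, with at most 2.05 in Rosa26CreER (limma adjusted p = 9.29e-06).

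In both members the TATCre tumours lay above all the other clear cell sarcomas. The same held for a member of 2015 bases, with 67.7 to 243 RPKM in TATCre, at most 14.9 in Prx1CreERT2, at most 1.45 in Bmi1IRESCreERT2 and 0 in all 5 Rosa26CreER tumours (limma adjusted p = 0.000104). Its synovial sarcoma values, 4.09 to 19.6 RPKM, were below every TATCre tumour. A member of 1134 bases had 35.8 to 295 RPKM in TATCre, 68.1 to 322 in synovial sarcoma and at most 2.19 in the other 9 clear cell sarcomas (limma adjusted p = 0.000406). The count was 26 of 322 (8.07%, against 5.50% of all) without TATCre N123-RLN and 27 of 320 (8.44%, against 5.04% of all) without TATCre N179-Larm. Calls over all transcripts thus fell as well. It was 47 of 263 (17.9%, against 10.5% of all) without Rosa26CreER 2, Rosa26CreER 5 and TATCre N178-Lleg. With the TATCre libraries that share N123 averaged, it was 40 of 327 (12.2%, against 9.23% of all). Among clear cell sarcomas, the titles of TATCre tumours alone hold what may be a body site (such as Rleg or Larm), so initiating Cre and site cannot be told apart.

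Between osteosarcomas of Col1Cre (n = 4) and Prx1Cre (n = 3), limma called 0 of 200 members tested, and 0% of all 13787 transcripts. An unadjusted p under 0.05 was found for 12 members (6.0%), against 4.21% of all. Limma without the intensity trend also called 0, as did the fit without Col1Cre 31 (0 of 175). The count was 1 of 185 (0.541%, against 0.0590% of all) without Col1Cre 22.

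The thresholds cut through a continuous range. The 5 members just inside the fold threshold had ratios of 4.02 to 4.06, and the 5 transcripts just outside had 3.90 to 3.97. Between ratios of 4 and 5 lay 70 members, and 112 other transcripts lay between 3 and 4. At the minimum level, the 5 members just inside had medians of 5.02 to 5.08 RPKM, and the 5 just outside, which passed the fold, had 4.72 to 4.996. In all, 77 transcripts under the minimum passed the fold.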

How the data were processed

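Total RNA (Qiagen RNeasy, with DNase) went into Illumina TruSeq libraries, per the labels' protocols. CASAVA 1.8.2, Novoalign 2.07.03 and the build mm9 are named in the submitters' processing notes, whereas for the counting program no name is stated in any source used here. Mouse values were deposited as a table of RPKM, with 0 columns left unused. Reads and lengths were recovered from the steps of these values for 17811 of 17842 transcripts above 0 in at least 3 libraries. The recovery was tested on simulated transcripts that were above 0 in nearly all libraries. It was not tested on transcripts listed at 0 in many libraries, as most short members were. Depth was 8.11 to 13.1 M reads, and a value of 0 is given as listed at 0. Tests used limma 3.58.1 in R 4.3.3 with an intensity trend on log2(RPKM + 1), two-sided, with Benjamini-Hochberg adjustment over all transcripts tested and a threshold of 0.05. They took transcripts with at least 1 RPKM in at least 6 of 26 libraries, or in at least 2 in the smaller fits. All log2 differences are on that scale, which understates changes of low transcripts. Groups came from the labels. The members and lists were chosen with earlier results of these data known, and the 2 identifiers by the rule given in the report. Alternatives were another added value, no filter, median ratio and quantile scaling, no trend, averaging of libraries that share a title number, and leaving out libraries. The deposited table of human tumours was not used here.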

Additional observations from a re-analysis of the deposited data

Results flagged for a closer look

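Of 15 groups of libraries and measures checked for a library far from the rest, 3 had one, and chance alone flags about 1 in 20. Among the osteosarcomas, Col1Cre 31 had 278 members of at least 100 bases above 0, where the next library had 174. The same library had the highest RPKM of uc009bax.2 among the osteosarcomas, 3.26 against 0.814 in the next. Among the controls, Chest5 had 250 members of at least 100 bases above 0, where the next had 164.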

How the results depend on the processing

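The set held 457 members, and its size followed its rule. It held 182 members when 5 in place of 1 was added to each median, 891 with a fold of 2 and 275 with a fold of 8, and 361 to 509 with 1 synovial sarcoma left out, of which 341 to 428 were shared with the set. Median ratio scaling gave 350 members, all 350 shared, quantile normalization 336 (332 shared), class means 375 (271 shared) and averaging of libraries with a common title number 552 (421 shared). The count between title numbers 37 and 39 was 0 to 5 with 1 library left out, the count over initiating Cre groups 26 to 49, and the count between Col1Cre and Prx1Cre 0 to 1. The count of osteosarcoma against the controls was 20 without the 5 libraries with many members above 0, a setting chosen after seeing the data, where fewer members, 171, were tested. Without the same 5 libraries, 60 in place of 8 longer members were listed at 0 in every library outside synovial sarcoma, where fewer libraries, 21, were left. No other count moved by more than 1.5 times. Under the alternatives for single members, 32 of 389 lost a call, among them the member of 900 bases in osteosarcoma against the controls under either scaling. No difference between 2 groups turned direction, and the F tests over initiating Cre groups have no direction to turn. No paired analysis was possible because the titles give no replicate number that pairs libraries across tissue types. Depth limits the 121 members with a median under 20 reads in synovial sarcoma.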
